A study of Mus musculus with 3 samples.

Results

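Teneurins are large transmembrane proteins that mediate adhesion and recognition between cells. They bind latrophilins, a group of adhesion receptors, on the neighbouring cell, and FLRT proteins can join that contact. They are best known for wiring the nervous system, and in mouse they are encoded by Odz1, Odz2, Odz3 and Odz4, named after the fly gene Odd Oz and now also called Tenm1 to Tenm4. Their genes are among the longest of the genome, with short exons scattered over very long introns.

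The regions of interest were NKX2-5 peaks at Odz2, Odz3 and Odz4, chosen by their position, with the peak midpoint inside the gene body or within 100 kb of it. There were 10 such peaks among the 4418 of the library S1 and 8 among the 5441 of the library S4, a mean of 9 ± 1.41 (SD, n = 2 libraries). The peak calls themselves selected the members, so peak number, score, width and overlap at these genes are given as descriptions with no test. NKX2-5, a homeobox protein, is required for heart development. Its binding was measured by chromatin immunoprecipitation and sequencing (ChIP-seq) on fixed hearts of mouse embryos of the Parkes strain at E11.5. S1 and S4 are both NKX2-5 ChIP libraries, no second condition was compared, and the labels name no treatment or engineered allele and do not say whether separate pools of hearts were used. An Input library of genomic DNA was not analysed here.

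Peaks are ranked by a score, the −log10 of the peak caller's p-value multiplied by 10, which ran from 140 to 3100 in both lists. It rises with sequencing depth, which is unknown here, so that a missing peak means only that a site did not reach 140 in that library. Peaks were called shared where S1 and S4 peaks overlapped by at least 1 bp. All positions are on mm9, counted from 1, and gene structures are those of GENCODE M1.

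The 18 peaks fell into 13 separate loci, of which 5 were shared, 5 were in S1 alone and 3 were in S4 alone. Odz4 held 3 of the shared regions, and Odz2 and Odz3 held 1 each. By far the strongest was an intronic region of Odz4, which carried the highest possible score in both libraries, whereas the shared peaks at Odz2 and Odz3 scored between 154 and 234.

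The sequence under the shared regions was read from the NCBIM37 (mm9) assembly and searched on both strands for the NKX2-5 core AAGTG, its longer form TNAAGTG (N is any base), the MEIS1 core TGACA, the overlap AAGTGACA and the spaced form GTGNTGACA. TNAAGTG contains AAGTG, AAGTGACA contains both cores, and GTGNTGACA contains TGACA, so their matches overlap. The 200 bases around the midpoint of the best shared region of each gene are shown first, on the plus strand, because they hold the centre of the overlap. Capitals mark matches in either orientation, so that CACTT is AAGTG and TGTCA is TGACA on the other strand. They lie at chr7:103809902-103810101 in Odz4, chr8:49307806-49308005 near Odz3 and chr11:37034493-37034692 in Odz2.
Odz4: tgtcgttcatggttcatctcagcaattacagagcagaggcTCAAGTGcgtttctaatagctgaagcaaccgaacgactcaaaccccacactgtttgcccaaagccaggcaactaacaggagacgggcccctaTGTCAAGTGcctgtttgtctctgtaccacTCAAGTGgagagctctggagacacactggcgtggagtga
Odz3: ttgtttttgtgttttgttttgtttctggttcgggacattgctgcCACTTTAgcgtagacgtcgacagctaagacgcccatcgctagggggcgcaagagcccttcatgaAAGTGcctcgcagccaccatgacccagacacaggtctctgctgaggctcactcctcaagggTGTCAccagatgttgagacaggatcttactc
Odz2: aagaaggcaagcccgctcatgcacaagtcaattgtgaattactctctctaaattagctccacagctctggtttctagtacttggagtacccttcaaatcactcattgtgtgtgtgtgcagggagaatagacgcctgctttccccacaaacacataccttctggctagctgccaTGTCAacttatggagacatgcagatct

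The Odz4 window held 3 copies of TNAAGTG, all in the form TCAAGTG, and 1 of them overlapped a TGACA core of the other strand. The Odz3 window held 1 TNAAGTG, a further AAGTG and 1 TGACA. The Odz2 window held 1 TGACA and no AAGTG, and the 2 AAGTG matches of that region lay at -197.5 bp and 110.5 bp from its midpoint. Of all 2546 shared regions in the series, 20 (0.786%) held at least 3 copies of TNAAGTG in the same 200 bases, a count made after the Odz4 window was seen.

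Across the whole stretch covered by both peaks, each of the 5 shared regions held TNAAGTG at least once. All 10 copies are given here with 15 bases on each side, read along the strand that carries the core, with the core in capitals. Distances are from the midpoint of the shared stretch, negative towards lower coordinates.
Odz2, -196.5 bp, minus strand: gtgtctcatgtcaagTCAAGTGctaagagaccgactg
Odz3, -52.5 bp, minus strand: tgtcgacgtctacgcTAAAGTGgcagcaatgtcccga
Odz4 region in intron 4, 159.5 bp, plus strand: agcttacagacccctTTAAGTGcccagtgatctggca
Odz4 strongest region, -540 bp, minus strand: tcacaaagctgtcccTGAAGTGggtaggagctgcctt
Odz4 strongest region, -57 bp, plus strand: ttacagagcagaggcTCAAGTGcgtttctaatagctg
Odz4 strongest region, 37 bp, plus strand: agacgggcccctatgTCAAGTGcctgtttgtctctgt
Odz4 strongest region, 64 bp, plus strand: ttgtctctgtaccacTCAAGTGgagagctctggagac
Odz4 strongest region, 389 bp, minus strand: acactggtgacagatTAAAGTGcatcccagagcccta
Odz4 strongest region, 648 bp, minus strand: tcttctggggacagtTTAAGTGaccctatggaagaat
Odz4 region downstream of it, -58.5 bp, minus strand: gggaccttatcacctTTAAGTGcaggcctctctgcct

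Among these 10 copies, TCAAGTG occurred 4 times, TTAAGTG 3 times, TAAAGTG 2 times and TGAAGTG once. Over the 2100 copies in all shared regions, the same forms made up 34.4%, 20.6%, 15% and 30.0%. All 4 forms were thus present at the teneurin genes, and 10 copies are too few to compare their proportions.

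TNAAGTG was present in 5 of 5 shared teneurin regions, with an exact 95% Clopper-Pearson interval of 47.8% to 100%. Intervals on shares cover counting error alone. The same core was present in 1404 of all 2546 shared regions (55.1%) and in 32.1% of stretches of equal length that began 2 kb beyond either end of them. Beside the teneurin regions themselves, 4 of 10 such flanking stretches held it. In copies per length, the teneurin regions had 2.48 per kb over 4029 bp, against 1.2 per kb in all shared regions and 0.496 per kb in their own flanks. Of the 10 copies, 6 lay in the 1923 bp of the strongest Odz4 region, at 3.12 per kb. Each of the other teneurin regions held 1 copy, at 1.45 to 2.39 per kb. Within 25 bp of the midpoint 0 of the 5 regions held it (0% to 52.2%), beside 9.11% of all shared regions. The lists give no summit, the point of strongest enrichment in a peak, and the midpoint need not lie there.

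AAGTG was found in 5 of 5 regions, where 90.1% of all shared regions held it, and TGACA in 4 of 5, where 87.2% did. The region in intron 4 of Odz4 was the one without TGACA. AAGTGACA occurred once, in the Odz4 region downstream of the strongest one, and in 5.42% of all shared regions. The spaced form GTGNTGACA was found in 0 of 5 (interval, 0% to 52.2%), against 15.5% of all shared regions and 3.14% of flanks.

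**Figure D1:**
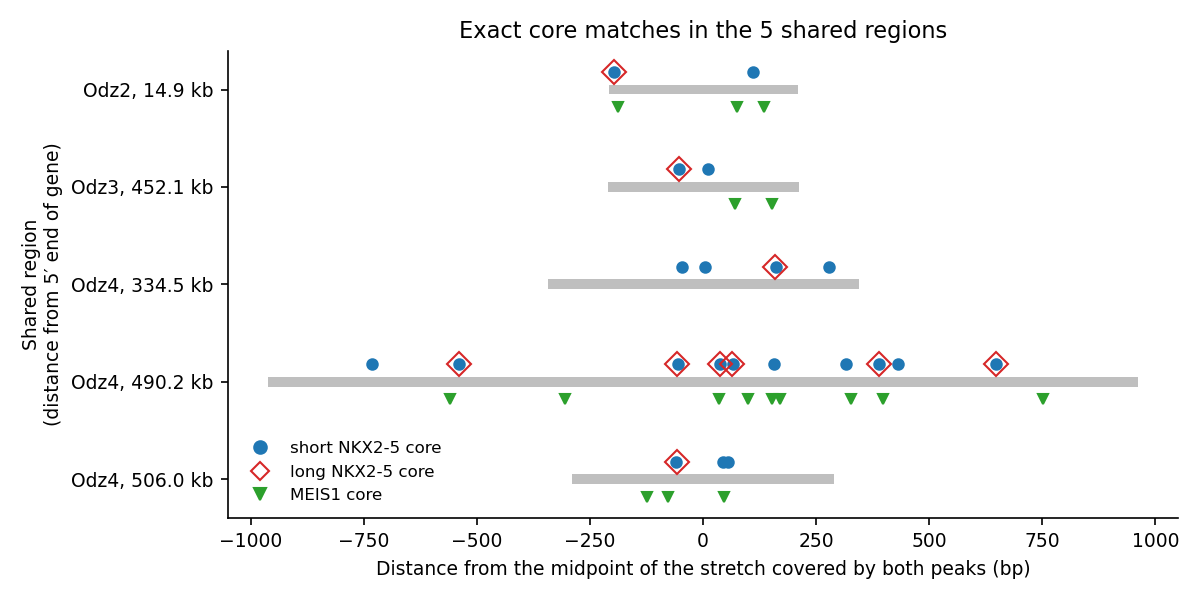
Positions of exact core matches (x axis, bp from the centre of the overlap of the S1 and S4 peaks) in the 5 shared regions (grey bars, drawn to length, labelled by distance from the 5′ end of the gene). The short NKX2-5 core is AAGTG, its long form has T and any base before that, and the MEIS1 core is TGACA, each on either strand. The Odz4 region at 490.2 kb holds 6 long cores, and each of the other 4 regions holds 1.

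Odz4, on the plus strand of chromosome 7, encodes the teneurin needed for early mouse development and for myelination. Its body at chr7:103319754-104059603 is 739.9 kb long, and the exons of its longest coding transcript make up 1.83% of that length. All 5 S1 peaks and all 4 S4 peaks in its window lay inside the gene body, all of them in introns.

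The strongest Odz4 peak lay in intron 7, 490.2 kb from the 5′ end of the gene and 17.3 kb from the nearest annotated exon. It was at chr7:103808979-103810985 in S1 and chr7:103809041-103810963 in S4, with a score of 3100 in each. The S4 peak lay wholly within the S1 peak, covered 95.8% of it, and their midpoints were 20 bp apart. Both were wide, 2007 bp in S1 and 1923 bp in S4, at percentiles 99.6 and 98.7 of the widths in their lists. Of all 2546 shared regions, 6 reached 3100 in both libraries, and this one had the second longest shared stretch of them. Scores of 3100 are the upper limit of the scale, so that the pairs at this limit cannot be ranked.

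This region held 10 copies of AAGTG, 6 of TNAAGTG and 9 of TGACA. Longer sequence holds more matches, so it was set beside the 44 shared regions of at least 1500 bp, in which the medians were 5, 1 and 6 copies. None of the others in that set held as many copies of TNAAGTG. Over shared regions of any length, 3 of 2546 held at least 6 copies, this one included, and the most was 9. The others of these 3 were shorter than 1500 bp and so lay outside that set. They held more copies per kb than the Odz4 region, which thus did not lead for its length. The rank among all shared regions was looked up after the count was seen.

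**Figure D2:**
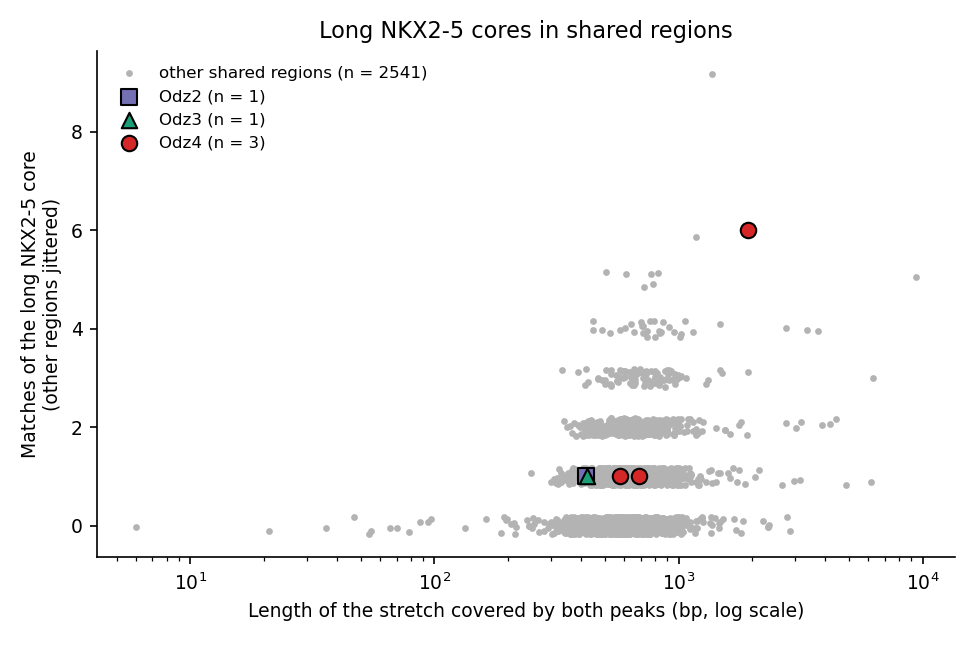
Number of long NKX2-5 cores, TNAAGTG on either strand (y axis, grey points jittered), against the length of the stretch covered by both peaks (x axis, bp, log scale) for all shared regions. The strongest Odz4 region has 6 cores in 1923 bp, and the other 4 teneurin regions have 1 each.

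The same intron, 50.56 kb long, held a second shared peak 14.5 kb further downstream. It scored 484 in S1 (chr7:103825472-103826056, 585 bp) and 457 in S4 (chr7:103825178-103826049, 872 bp), ranks 570 and 833 of the lists. The shared stretch of 578 bp covered 98.8% of the S1 peak and 66.3% of the wider S4 peak. The midpoints were 150.5 bp apart, the largest shift among the 5 pairs.

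One more peak of intron 7 was called, in S1 alone. It was 552 bp wide, scored 447 and lay at chr7:103793872-103794423, 14.55 kb upstream of the strongest peak. It was the peak nearest to any annotated transcript start of the member genes, 1.47 kb inside the start of Odz4-012, a transcript annotated as a retained intron. S1 peaks without a partner rarely scored so high. It ranked 10 among 1817 of them, of which 16 (0.881%) reached 400, a level set after its score was seen. The S4 list had no peak between chr7:103654630 and the strongest peak, a gap of 154.4 kb. Together the intron held 3 S1 peaks and 2 S4 peaks.

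Nearer to the 5′ end, a weaker shared peak lay in intron 4, 334.5 kb from the start of the gene. It scored 217 in S1 (chr7:103653943-103654635) and 199 in S4 (chr7:103653922-103654630). The pair matched closely, with 99.3% of the S1 peak and 97% of the S4 peak covered and the midpoints 13 bp apart. Intron 2 held 1 peak of each library, but at different places. The S1 peak at chr7:103569473-103569828 scored 205 and was 356 bp wide, and the S4 peak at chr7:103548781-103549684 scored 238 and was 904 bp wide. Neither had a partner.

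Odz2, on the minus strand of chromosome 11, has the longest body of the 3 genes, 1229.3 kb at chr11:35820158-37049466. It held 2 S1 peaks and 3 S4 peaks. Odz2 encodes a teneurin first characterised as a latrophilin ligand at synapses. Its shared region lay in intron 1, 14.9 kb downstream of the 5′ end of the gene. The peaks scored 154 in S1 (chr11:37034359-37034801) and 158 in S4 (chr11:37034384-37034836), both near the lowest score of the lists. Despite the low scores the peaks were almost congruent, 443 bp and 453 bp wide with midpoints 30 bp apart, and they covered 94.4% and 92.3% of each other. The S4 peak was among the narrowest of its list, at percentile 2.05 of the widths.

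The remaining Odz2 peaks had no partner and were spread over the gene. The S1 peak at chr11:36251666-36252236 (score 186) lay in intron 4, the longest intron at 479.3 kb, 6.17 kb upstream of the start of Odz2-007, a transcript annotated as processed. In S4, a peak at chr11:36957273-36957956 (score 169) lay in intron 2 and one at chr11:35869899-35870570 (score 243) lay in intron 21, near the 3′ end. The highest score at Odz2 was therefore that of a peak found in 1 library only. The nearest annotated protein-coding start to that peak was that of Wwc1, 76.2 kb away.

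Odz3, on the minus strand of chromosome 8, encodes the teneurin known for the layout of visual connections. Its body is 447.0 kb long, at chr8:49313036-49760044, and held no peak in either library. The shared region of Odz3 lay downstream of the gene, 5.13 kb beyond its 3′ end. It scored 162 in S1 (chr8:49307695-49308116, 422 bp) and 234 in S4 (chr8:49307438-49308319, 882 bp). The S1 peak lay wholly within the S4 peak and made up 47.8% of it, so that this pair alone was lost when each peak had to be covered to at least 50%. S1 alone had a peak at chr8:49281398-49281938 (score 145), 31.4 kb beyond the 3′ end. Dctd, 86.1 kb away, had the nearest annotated protein-coding start to it. S1 alone also had a peak at chr8:49858760-49859161 (score 144), 98.9 kb upstream of the 5′ end.

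That last peak was the member nearest to the limit of 100 kb, and the strongest peaks around Odz3 lay just outside it. A shared pair 101.1 kb (S1) and 101.0 kb (S4) upstream of the gene scored 638.5 in S1 (chr8:49860737-49861488) and 725.5 in S4 (chr8:49860530-49861599). It lay 1.58 kb beyond the weak S1 peak. A further shared pair at 124.5 kb (S1) and 124.3 kb (S4) scored 839 in S1 (chr8:49884257-49884730) and 392 in S4 (chr8:49883991-49884687). Odz3 had the nearest annotated protein-coding start to both of them. No other peak lay between 100 kb and 200 kb from the 3 genes, and the next peaks were 237.4 kb from Odz2 and 489 kb from Odz4. Widening the window to 200 kb thus raised the shared regions from 5 to 7, both of the added ones upstream of Odz3.

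**Figure D3:**
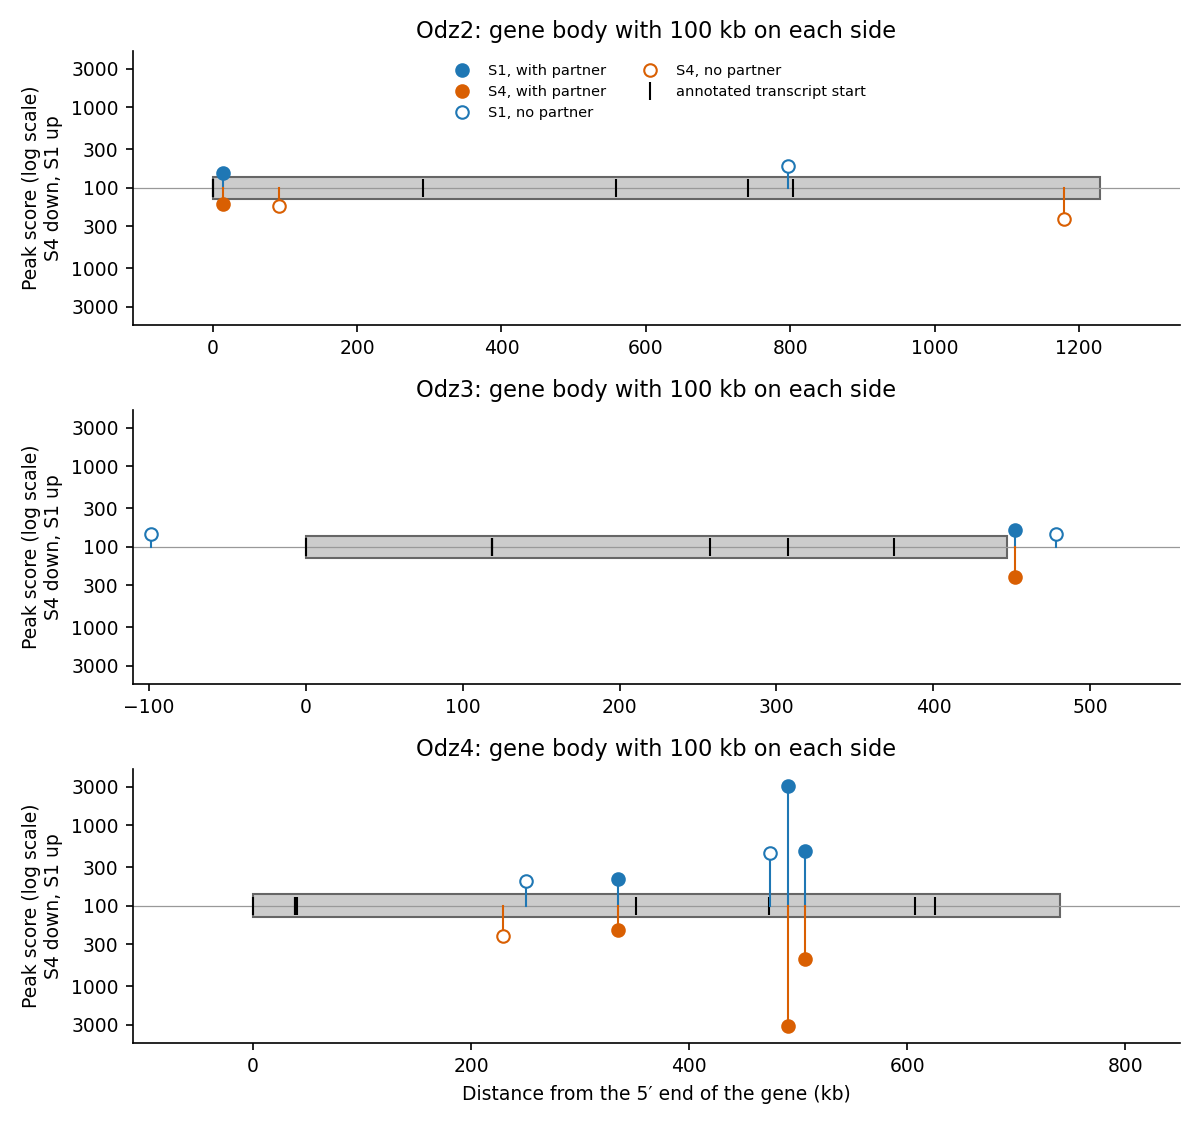
Peaks along Odz2, Odz3 and Odz4 (x axis, kb from the 5′ end of the gene, with 100 kb on each side), with the score of each peak on a log scale, S1 upwards and S4 downwards. Grey bars are gene bodies and black ticks annotated transcript starts. Filled points have a partner in the other library. The 3100-score pair of Odz4 stands above all others, and the Odz3 body is empty.

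Taking the 3 genes together, 5 of 10 S1 peaks had a partner (50%, 18.7% to 81.3%), where 58.9% of all S1 peaks did. In S4, 5 of 8 had one (62.5%, 24.5% to 91.5%), where 47.0% of all S4 peaks did. Both intervals include the share of the whole list, but with so few peaks they are wide, and no difference was tested. The median score of the member peaks was 195.7 in S1 and 235.9 in S4, beside 211.8 and 223.2 over all peaks. The median width was 546.5 bp and 790.5 bp, beside 625 bp and 783 bp. The medians of the members were thus below those of the list in S1 and above them in S4. Of the member peaks 5 of 10 in S1 (50%) and 3 of 8 in S4 (37.5%) scored under 200, beside 46.2% and 41.6% of all peaks. With a minimum of 200 the mean number per library fell from 9 to 5 and the shared regions from 5 to 2, both in Odz4.

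The scores of the 5 shared pairs were close in both libraries. The log2 ratio of S4 to S1 ranged from -0.12 to 0.53, with a median of 0 and an SD of 0.262. Over all 2601 pairs, each an S1 peak with its highest-scoring S4 partner, the median was 0.18 and the SD 0.745. An S4 peak can occur in several of those pairs, whereas every teneurin pair had 1 peak per library, so the 2 sets are not fully alike. The pair of Odz3 had the ratio of 0.53, and each of the other 4 lay within 0.12 of 0. The pair at the upper limit of the score has a ratio of 0 by that limit. The midpoints of the teneurin pairs were a median of 27 bp apart, beside 81 bp over every overlapping pair of the lists. The latter include peaks with several partners, whose midpoints can lie far apart.

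**Figure D4:**
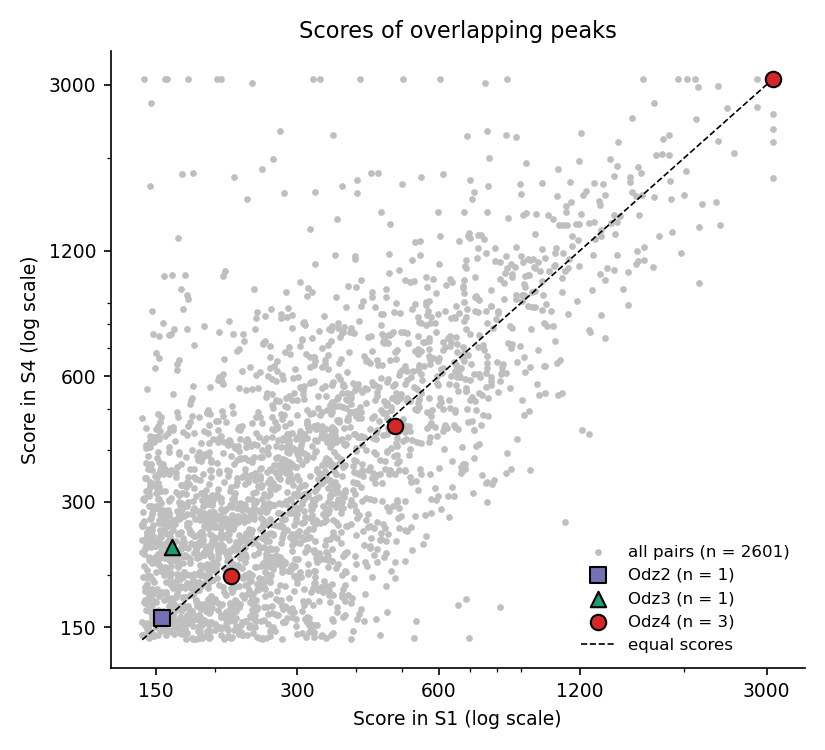
Score in S4 (y axis) against score in S1 (x axis), both on log scales, for each S1 peak with its highest-scoring S4 partner. Teneurin pairs are the large symbols, and the dashed line marks equal scores. The Odz3 pair lies above the line, and the other 4 lie on or close to it.

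Long genes collect more peaks, so the density of peaks was set beside that of the 256 protein-coding genes whose body is at least as long as that of Odz3. Odz4 had 0.608 ± 0.0956 peaks per 100 kb (SD, n = 2 libraries), the tenth highest of these genes. Odz2 had 0.203 ± 0.0575 peaks per 100 kb, rank 86. The median of the 256 genes was 0.0911, and 98 of them, Odz3 and Odz1 included, had no peak in either library. With a score of at least 200, the density of Odz2 fell to 0.0407. The density of Odz4 was at least 0.541 in each library taken alone and with that minimum.

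**Figure D5:**
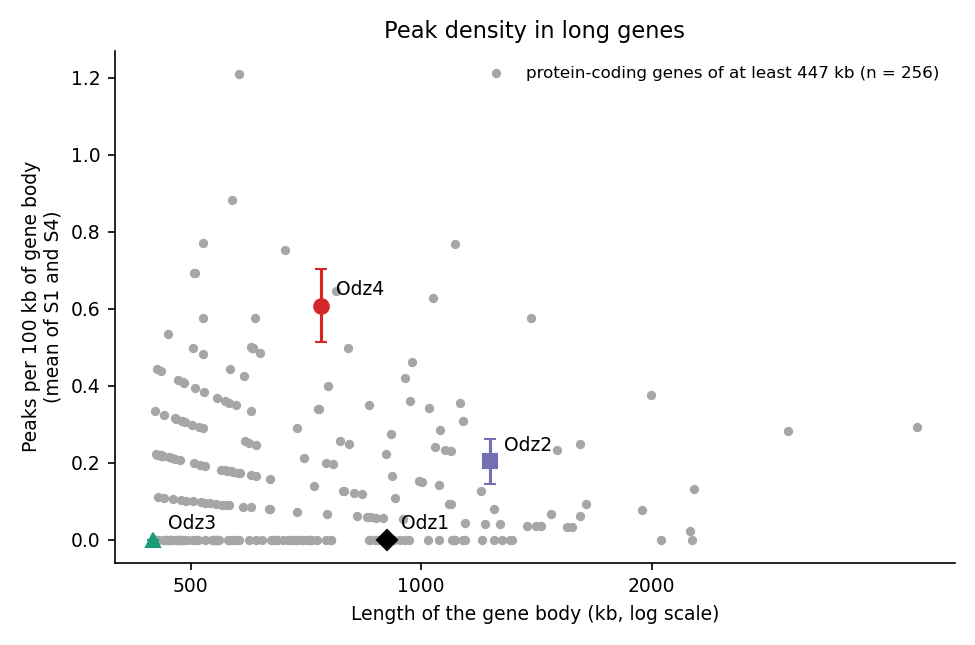
Peaks per 100 kb of gene body (y axis, mean of S1 and S4) against gene length (x axis, kb, log scale) for long protein-coding genes. Bars on the teneurin genes are the SD of 2 libraries. Odz4 lies at 0.608 and Odz2 at 0.203, while Odz3 and Odz1 lie at 0.

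In all 13 loci between 99.5% and 100% of the 32-base words occurred once in the assembly, and the G and C content was between 42.3% and 51.2%. The 8 loci found in 1 library were searched in the same way. AAGTG was present in 8 of 8, TGACA in 7 of 8 and TNAAGTG in 6 of 8. Over all peaks without a partner, AAGTG was present in 84.8% in S1 and 89.3% in S4, TGACA in 79.4% and 85.2%, and TNAAGTG in 44.0% and 49.0%. In copies of TNAAGTG per length, these 8 loci had 1.5 per kb, beside 1.06 per kb and 0.899 per kb over all such peaks. The strong S1 peak of Odz4 without a partner held 1 TNAAGTG and 1 TGACA. The narrow S1 peak in intron 2 of Odz4 held 4 copies of AAGTG in 356 bp, but no TNAAGTG.

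Odz1, the family member on chromosome X, had no peak of either library within 100 kb of its 901.3 kb body. The nearest peak was 882.8 kb away, in S4. Known partners and relatives of teneurins were followed through a list of 9 genes that included Odz1. By the same rule of 100 kb, 2 of the 9 had a shared region, beside 24.3% of 22350 protein-coding genes. Within 20 kb of the gene, 1 of the 9, Lphn3, had one. The share over all protein-coding genes was not counted for that smaller window.

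Among the latrophilin genes, Lphn3 (body of 805.0 kb) had a shared region. Lphn1 (41.85 kb) and Lphn2 (173.7 kb) are shorter and had no peak in either library. Of the 256 protein-coding genes at least as long as Odz3, 40.6% held a shared region in the body. The Lphn3 region lay inside the gene, 4.05 kb from its 5′ end, at chr5:81452841-81453579, and scored 374 in S1 and 363 in S4. Of the FLRT genes, whose membrane proteins bind latrophilins, Flrt1 had a shared region 48.1 kb from its start, with scores of 177 and 161. That region lay 0.844 kb from the start of Macrod1, which was the nearest coding gene. Flrt2 had no peak and Flrt3 had 2 peaks in S4 alone.

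Dag1, the gene of dystroglycan, had 1 peak in each library, which did not overlap. Mbd1, which encodes a protein that binds methylated DNA, had 1 peak, in S4. The shared region of Lphn3 thus lay 4.05 kb from its gene start, whereas the nearest shared region of Odz2, Odz3 and Odz4 to the start of its gene was 14.9 kb away.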

How the data were processed

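The 2 NKX2-5 ChIP libraries of E11.5 hearts were analysed. The study's methods name BOWTIE for alignment to mm9 and MACS as peak caller, and CASAVA 1.4 is named in the submitters' processing notes. Whether Input served as control is not given in the sources used here. The authors deposited 1 list per library with the start, the end and the score of each peak. The background that the score was set against is therefore not known, and scores were not scaled between the libraries. No read numbers were used, so depth is unknown and no error of a single score is given.

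The members and lists were chosen with earlier results of these data known. No test was run. Gene bodies were taken from GENCODE M1 (for a symbol with several entries, the longest), and sequence from NCBIM37, which is mm9 and whose chromosomes contained all peaks. Intron numbers refer to the longest coding transcript of each gene. By rule, the text names the shared regions of the teneurin genes, their highest-scoring peak without a partner per library, the peak nearest to the gene start, and the strongest shared region of each partner gene. A further gene of the partner list is not reported here and was left out of its counts. The other member peaks, the peaks 100 kb to 200 kb from Odz3, and Macrod1, Wwc1 and Dctd were named after their values were seen. Alternatives changed the window, the minimum score, the overlap rule, the merging of close peaks, the motif window and the library. Overlap counts, window counts and counts of TGACA were tested on simulated data. The TGACA sites were planted on the plus strand only, and no motif with N was tried. Python 3.11.15, numpy 2.4.6, pandas 2.3.3, scipy 1.17.1, numba 0.67.0 and matplotlib 3.10.9 were used.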

Additional observations from a re-analysis of the deposited data

How the results depend on the processing

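Of 64 alternatives, 52 left the value in place and 12 moved it. A count was taken to be in place within 1.5-fold, a share within its interval, and other values within 1 SD, and no test was involved. For the median score, the median width and the densities, the SD was that of 2 libraries. Either library alone always lies within 1 SD of their mean, so dropping a library could not move these values. Keeping single partners only could not move the score ratio either, because every teneurin pair had 1 peak per library. A score of at least 200 lowered the mean number of peaks per library to 5, the shared regions to 2 and the density of Odz2 to 0.0407 per 100 kb, and raised the median score, 215.8 as the mean of both libraries, to 345.1. Fewer peaks and a higher median follow from that filter. Searching only 25 bp to either side of the centre lowered the share of shared regions with AAGTG to 40%, and the shares with TNAAGTG, with TGACA and with the overlap AAGTGACA to 0%, over less sequence. Counting 100 kb on each side moved the density to 0.309 per 100 kb for Odz3 and to 0.479 for Odz4. Each library alone gave from 8 to 10 peaks, a median score from 195.7 to 235.9 and a median width from 546.5 bp to 790.5 bp, the latter 4 values chosen after the data were seen. The densities ranged from 0.163 to 0.244 for Odz2 and from 0.541 to 0.676 for Odz4. The partner genes with a shared region fell from 2 to 1 with the gene body or 20 kb in place of 100 kb. No paired analysis was possible because there was 1 group of ChIP libraries. Unknown depth limits the reading of every peak found in 1 library.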
